A study of Nilaparvata lugens with 9 samples.

Results

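The miR-263, miR-96 and miR-183 family of the brown planthopper, *Nilaparvata lugens*, was followed in small RNA libraries of adult females. Members were all listed miRNAs whose names carried the number of miR-96, miR-183 or miR-263, with each distinct mature sequence counted once. This rule found 6 sequences among the 759 distinct sequences of the table, 4 of them named miR-263, 2 named miR-96 and 0 named miR-183. All 6 came from the 5′ arm, and the table listed them in 8 entries because a sequence can be placed at more than one hairpin. Of the 6 members, 3 had a genome position and 3 had none. The family held 41743.5 of 19337134.5 reads, which is 0.216% of the reads on listed miRNAs. Members and comparison lists were taken by name and not by level, but they were chosen with earlier results of these data known.

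The libraries came from whole bodies of untreated short-winged (SW) morph females at 1 day (1 d), 3 days (3 d) and 5 days (5 d) after emergence, with 3 libraries per phase and 9 in all. The insects came from a field population reared on the susceptible rice variety TN1, and each sample was made of 30 insects. Library depth was between 972506 and 3184052 reads on listed miRNAs. The sources used here do not state whether the libraries of a phase were separate pools of insects, so p-values measure only the spread between these libraries, which may be technical. In whole-body RNA, fewer cells that express a miRNA and less of the miRNA per cell cannot be told apart.

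One library stood apart before any phase was compared. In 1 d replicate 2, the shallowest library, sequences without a genome position took 5.12% of reads, against 0.607% to 0.829% in the other 8 libraries. Its library values are therefore given apart from those of the other 1 d libraries. The 1 d means and the main tests include it.

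MicroRNAs recognise their targets mainly through the seed, bases 2 to 8 counted from the 5′ end. In *Drosophila*, miR-263a and miR-263b protect the cells of mechanosensory bristles from programmed death by repressing the pro-apoptotic gene hid, and miR-263b also acts in the circadian clock neurons. In vertebrates, miR-96 and miR-183 are made from a shared cluster together with miR-182, and the cluster is known for its role in hair cells of the inner ear and in photoreceptors. The miR-263 and miR-96 sequences are related through their seeds, and for that reason the members are shown together.

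The 6 mature sequences are printed to show which members share a seed and where they differ. Capitals mark the seed. The first 3 carry the seed ATGGCAC and are all named miR-263a.
tca-miR-263a-5p_R-2: aATGGCACtggaagaattcacg
tur-miR-263a-5p_R-1_1ss12AT: tATGGCACtggtagaattcac
bdo-miR-263a_R+1_1ss24GA: aATGGCACtggaagaattcacggaa
The other 3 carry the seed TTGGCAC and comprise miR-263b and both miR-96 sequences.
tca-miR-263b-5p_R+2_1ss10GT: cTTGGCACttgaagaattcacag
isc-miR-96_R-1: tTTGGCACtagcacatttttg
tcf-miR-96_R-2: tTTGGCACtagcacattttt

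The prefix of a name gives the species of the reference miRNA to which the reads were matched: tca the beetle *Tribolium castaneum*, tur the spider mite *Tetranychus urticae*, bdo the fruit fly *Bactrocera dorsalis*, isc the tick *Ixodes scapularis* and tcf the crustacean *Triops cancriformis*. The rest of the name gives the difference from that reference, such as bases gained or lost at the right end (R) or a substitution (ss). By seed, the ATGGCAC members held 39646.5 reads and the TTGGCAC members held 2097 reads. Outside the family, 0 sequences of the table carried either seed.

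Between seeds, miR-263a and miR-263b were close relatives over their whole length. Of 22 aligned bases, 18 were equal, and the differences from miR-263a to miR-263b were A1C, A2T, G10T and G22A, counted from 1 at the 5′ end. The base at position 10 of miR-263b also differed from the *T. castaneum* reference, as G10T. The miR-96 sequences shared the seed of miR-263b but only 13 of 20 bases of tcf-miR-96_R-2 were equal to it. The first 20 bases of isc-miR-96_R-1 were those of tcf-miR-96_R-2, so the pair differed by 1 base at the right end.

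The members without a genome position resembled members that had one, which does not show that they came from the same hairpins. Their origin was not tested. Against its tick reference, isc-miR-96_R-1 had no substitution. The first 22 bases of bdo-miR-263a_R+1_1ss24GA were those of tca-miR-263a-5p_R-2, and its last bases differed from both listed miR-263a hairpins as A24G and A25C. Of 21 bases of tur-miR-263a-5p_R-1_1ss12AT, 19 were equal to the hairpins, with T1A and T12A from the member to the hairpin. It differed from its own mite reference as A12T. How reads of such close miR-263a sequences were divided among the names is not stated, so any split between them and the abundant miR-263a is uncertain.

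Coordinates are those of the deposited table. Neither the labels nor the methods name its genome build, and gene annotation of these scaffolds was not used here. The table placed tca-miR-263a-5p_R-2 at 2 hairpins, on scaffold NW_019106506.1, plus strand, start 110062, and on NW_019106772.1, minus strand, start 58082. The same counts stood in both entries, so the share of reads from each hairpin is not known. The listed precursor sequences, called hairpins here, were both 89 bases long and were equal at 66 of these. The deposited hairpin length was 83 bases for both, and the predicted free energies were -52.2 and -42.7 kcal/mol. Placed on the same minus strand of NW_019106772.1, tca-miR-263b-5p_R+2_1ss10GT started at 11671, 46411 bases from the miR-263a start, in a hairpin of -37.1 kcal/mol.

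The placed miR-96 member had a weaker hairpin. Its entries were on NW_019108333.1, plus strand, at starts 23187 and 62950, which are 39763 bases apart. Both listed the same precursor sequence of 37 bases, with a deposited hairpin length of 31 bases. The predicted free energy was -11 kcal/mol, above the limit of -15 kcal/mol in the study's criteria. Of the 905 entries of the table, 56 lay above that limit, and all 56 were entries of known miRNAs. The hairpin also did not hold the mature sequence exactly, with C6T from tcf-miR-96_R-2 to the hairpin. This base lies in the seed, so the genomic run would carry the seed TTGGTAC. The corresponding 20 bases of the hairpin are printed with the differing base in capitals.
miR-96 hairpin, first 20 bases: tttggTactagcacattttt

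One sequence from the opposite arm of a miR-263a hairpin was also listed, under a candidate name and hence outside the family. PC-3p-111558_62 lay at bases 55 to 76 of the hairpin on NW_019106772.1 with all 22 bases equal, whereas 15 of 22 were equal on NW_019106506.1. It is printed because it is the only 3′ product of a family hairpin that was found by sequence.
PC-3p-111558_62: cgtgatcctctggtgccatacc
It had 62 reads in total, or 0.157 reads per 100 reads of miR-263a. At 1 d it was listed at 0 in replicate 2, and among the other 1 d libraries at 0 in replicate 1 and at 8 reads in replicate 3. At 3 d it had 9, 8 and 12 reads and at 5 d 14, 6 and 5 reads. The library with the most miR-263a reads, 1 d replicate 1, was thus among those with none listed for the opposite arm.

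Levels are given as CPM, the counts per 1000000 reads on listed miRNAs, scaled by the TMM factors of edgeR (TMM CPM). The smallest count above 0 in the table was 2.5 reads, so that a value listed at 0 may stand for a low count. The members spanned ranks 44 to 577 of 759 by total reads, and their order was miR-263a, miR-263b, isc-miR-96, tur-miR-263a, bdo-miR-263a and tcf-miR-96. By mean TMM CPM over the 9 libraries the last pair changed places, with 1.64 for tcf-miR-96_R-2, which had reads only in the shallowest library, and 1.04 for bdo-miR-263a_R+1_1ss24GA.

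**Figure D1:**
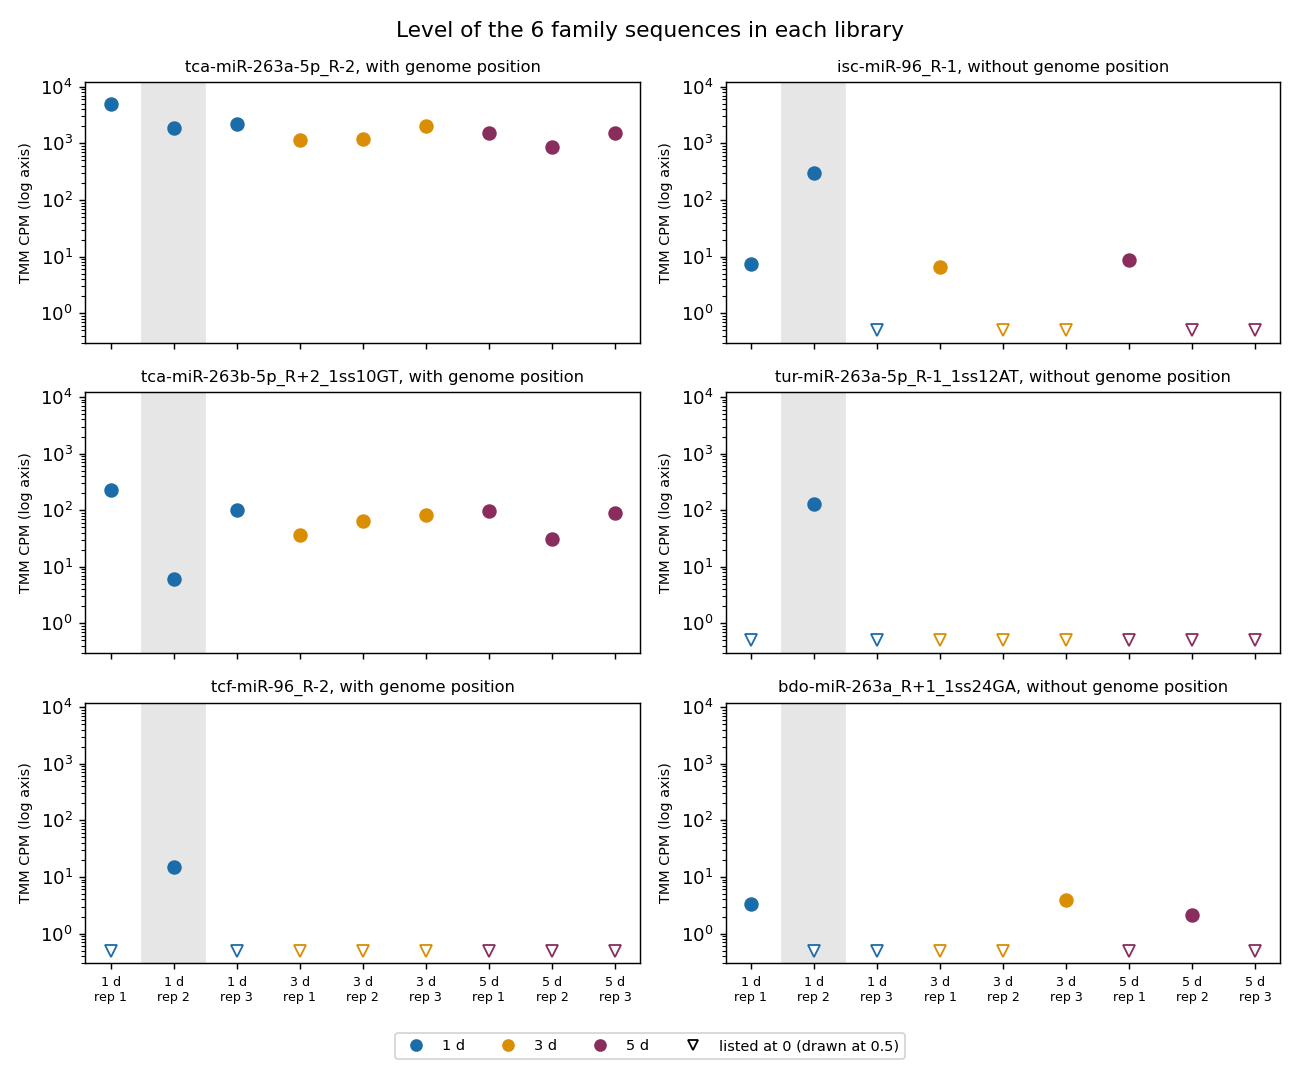
TMM CPM (log axis) of each of the 6 family sequences in the 9 libraries, with members that have a genome position in the left column, members without one in the right column, 1 d replicate 2 on a grey band and open triangles for values listed at 0. Both miR-263 members with a position had reads in 9 of 9 libraries, whereas isc-miR-96_R-1, tur-miR-263a-5p_R-1_1ss12AT and tcf-miR-96_R-2 had their highest value in 1 d replicate 2.

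miR-263a was by far the most abundant member, with 39513.5 reads or 94.7% of family reads, and the authors' table ranked it as high. At 1 d, tca-miR-263a-5p_R-2 stood at 1871 TMM CPM in replicate 2 and at 4958 and 2203 TMM CPM in replicates 1 and 3. At 3 d it stood at 1150, 1184 and 2001 TMM CPM, and at 5 d at 1532, 876 and 1521 TMM CPM. The highest value was that of 1 d replicate 1, and 1 d replicate 2 lay below the highest 3 d library. The phase means were 3011 ± 1694, 1445 ± 482 and 1310 ± 376 TMM CPM over the phases in order of age (SD, n = 3 each).

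miR-263b was the second most abundant member, with 1785 reads or 4.28% of family reads. At 1 d, tca-miR-263b-5p_R+2_1ss10GT stood at 6.15 TMM CPM in replicate 2 and at 225 and 99.7 TMM CPM in replicates 1 and 3. At 3 d it stood at 35.8, 64.1 and 83.8 TMM CPM, and at 5 d at 98.4, 30.5 and 88.6 TMM CPM. Both extremes of the 9 libraries were 1 d libraries, so the phases overlapped throughout. The phase means were 110 ± 110, 61.2 ± 24.1 and 72.5 ± 36.7 TMM CPM over the phases in order of age (SD, n = 3 each).

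**Figure D2:**
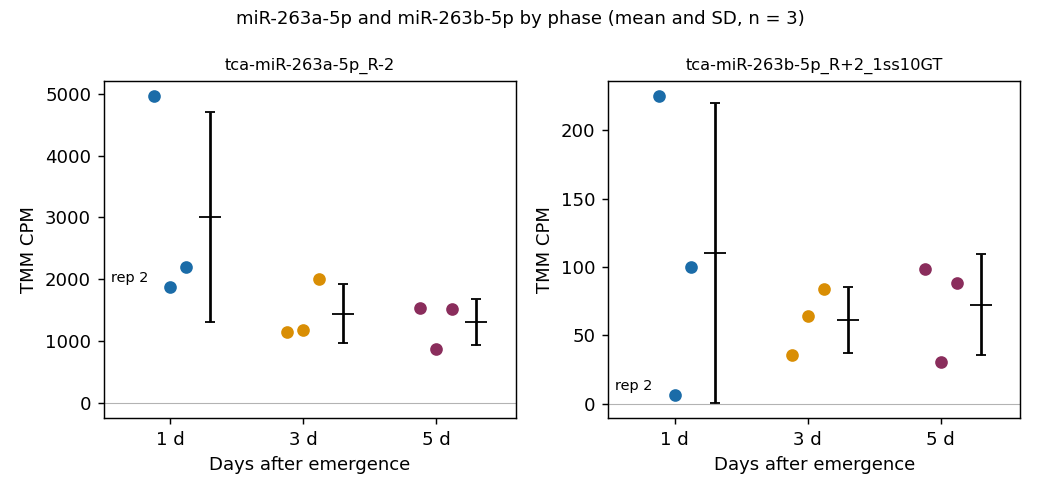
TMM CPM of miR-263a-5p (left) and miR-263b-5p (right) against days after emergence, with 1 point per library, 1 d replicate 2 marked, and the mean and SD of 3 libraries beside the points. miR-263a at 5 d lay between 876 and 1532 TMM CPM, below all 1 d libraries, and miR-263b overlapped between all phases. In TMM CPM, 7.62% of all sequences tested were likewise lower at 5 d than at 1 d without overlap. On library totals miR-263a overlapped between these phases.

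The miR-96 reads were few and fell mostly in one library. At 1 d, isc-miR-96_R-1 stood at 304 TMM CPM (247 reads) in replicate 2, and at 7.53 TMM CPM and 0 in replicates 1 and 3. At 3 d it had 6.50 TMM CPM in replicate 1, and at 5 d 8.67 TMM CPM in replicate 1, and the remaining 3 d and 5 d libraries were listed at 0. All phases therefore overlapped at 0. The placed sequence, tcf-miR-96_R-2, had 12 reads (14.8 TMM CPM), all in 1 d replicate 2.

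The remaining sequences named miR-263a had no genome position. tur-miR-263a-5p_R-1_1ss12AT had 106 reads (130 TMM CPM), all in 1 d replicate 2. bdo-miR-263a_R+1_1ss24GA had 27 reads, namely 9 in 1 d replicate 1, 13 in 3 d replicate 3 and 5 in 5 d replicate 2, and was listed at 0 elsewhere. The first of these was thus a sequence of a single library, whereas the second appeared in 1 library of each phase.

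With at least 1 read required in every library of a phase, 2 members were detected in each phase, namely miR-263a and miR-263b. With reads in any library accepted, 6 members were detected at 1 d, 4 at 3 d and 4 at 5 d. The 2 members of the 1 d phase that were in no 3 d or 5 d library were tur-miR-263a-5p_R-1_1ss12AT and tcf-miR-96_R-2, and both were in 1 d replicate 2 alone. The count at 1 d therefore rested on that library.

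The composition of the family in 1 d replicate 2 differed from that in the other 8 libraries. Reads of miR-263a per read of miR-263b were 304 in 1 d replicate 2, against 15.6 to 32.2 in the other 8 libraries. Members without a genome position made up 18.7% of family reads in 1 d replicate 2, against 0% to 0.545% in the others. miR-263a made up 80.4% of family reads there, against 93.5% to 96.5% in the others.

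The low miR-263b value lay outside the counting error of that library. miR-263b had 5 reads in 1 d replicate 2, or 5.14 CPM of the library total with an exact Poisson 95% interval of 1.67 to 12 CPM, against 32.0 to 213 CPM in the other 8 libraries. The interval covers counting error only. The level of isc-miR-96_R-1 was 254 CPM in 1 d replicate 2, against 0 to 9.06 CPM in the others. That of miR-263a was 1564 CPM, which lay inside the range of the others, 919 to 4706 CPM.

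**Figure D3:**
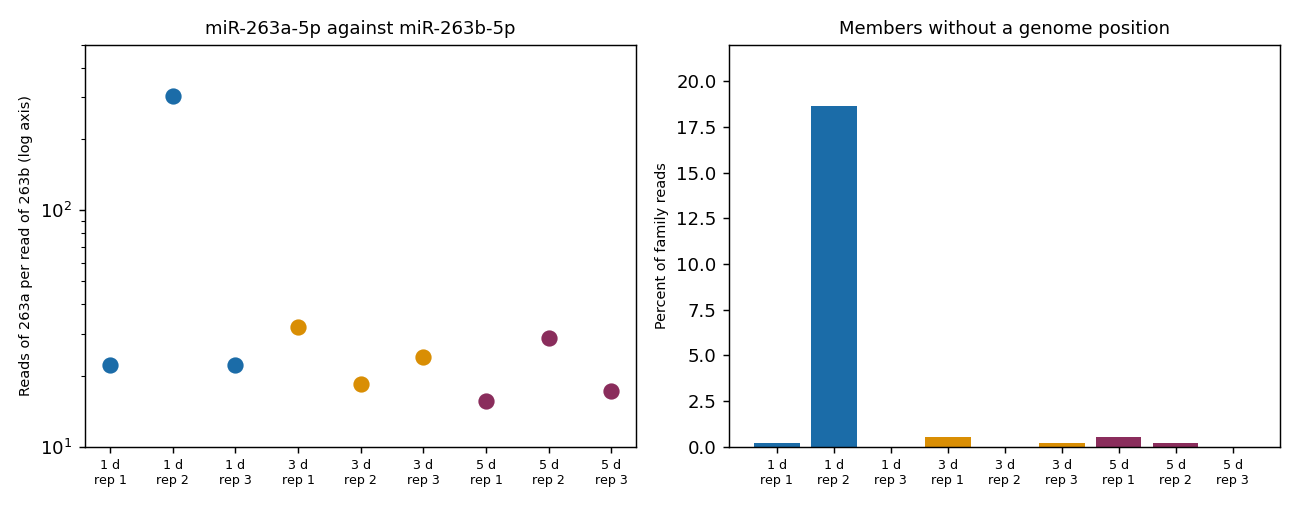
Reads of miR-263a per read of miR-263b (left, log axis) and percent of family reads in members without a genome position (right), by library. 1 d replicate 2 stood at 304 and 18.7%, and the other 8 libraries between 15.6 and 32.2 and between 0% and 0.545%.

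The same library held high values of many sequences outside the family. Among sequences outside the family with at least 10 reads, 8 of 35 without a genome position (22.9%) had over 50% of their summed CPM in 1 d replicate 2, as did 13 of 197 (6.60%) whose listed hairpin differed from the mature sequence and 1 of 380 (0.263%) whose listed hairpin held it exactly. In the family, isc-miR-96_R-1 had 91.4% and tur-miR-263a-5p_R-1_1ss12AT and tcf-miR-96_R-2 had 100% of their summed CPM in that library, and none of these was held exactly by a listed hairpin. miR-263a and miR-263b, whose hairpins held them exactly, had 9.22% and 0.707%. The part of this library in each result was not tested beyond leaving it out.

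Differences between phases were tested with the quasi-likelihood F-test of edgeR, with Benjamini-Hochberg adjustment over the 341 sequences that passed its filter on low counts. Of the 6 members, 3 passed the filter, miR-263a, miR-263b and isc-miR-96_R-1, and isc-miR-96_R-1 also passed it without 1 d replicate 2. None of the 3 was called at an adjusted p below 0.05, with 0 members called at 3 d against 1 d, 0 at 5 d against 1 d, 0 at 5 d against 3 d and 0 over all 3 phases. Over all sequences tested, the share called by edgeR was 0.0%, 1.47%, 0.0% and 1.17% in these comparisons. DESeq2 also called 0 members, and there 1.76%, 3.81%, 0.587% and 3.52% of all sequences were called. DESeq2 gave no p for isc-miR-96_R-1.

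At an unadjusted p below 0.05, edgeR counted 1, 1, 0 and 1 member in the same order, in each case miR-263a. Over all sequences tested, 8.5%, 11.4%, 2.35% and 8.21% passed that limit. Both comparisons with 1 d share its libraries.

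With all 759 sequences fitted and no filter on low counts, edgeR called isc-miR-96_R-1 and tur-miR-263a-5p_R-1_1ss12AT in both comparisons with 1 d, and also miR-263a at 5 d, which makes 2 members at 3 d against 1 d, 3 at 5 d against 1 d and 3 over all phases. Of all 759 sequences, 2.5%, 3.43% and 3.56% were called there. The first pair are the members with most or all of their reads in 1 d replicate 2, whereas miR-263a had reads in every library.

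For miR-263a, the edgeR log2 fold change was -1.20 ± 0.43 (SE) in 5 d vs. 1 d, with an unadjusted p of 0.0202 and an adjusted p of 0.331. All 3 libraries at 5 d lay below all 3 libraries at 1 d in TMM CPM, and 7.62% of all sequences tested were likewise lower at 5 d without overlap. The exact 2-sided permutation test gave p = 0.1, the smallest that 3 against 3 libraries allow. On library totals the phases overlapped, with 1602 CPM in 5 d replicate 1 and 1564 CPM in 1 d replicate 2. On the authors' normalized values they did not overlap, with at most 3319 at 5 d and at least 3780 at 1 d, and 5.57% of all sequences tested were lower at 5 d in that way. Leaving out 1 d replicate 1, the highest library, brought the log2 fold change to -0.65 (adjusted p = 0.753 in edgeR), and leaving out 1 d replicate 2 to -1.47 (adjusted p = 0.257).

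In 3 d vs. 1 d, the edgeR log2 fold change of miR-263a was -1.06 ± 0.43 (SE), with an unadjusted p of 0.0345 and an adjusted p of 0.512. The phases overlapped, since 3 d replicate 3 stood at 2001 TMM CPM and 1 d replicate 2 at 1871 TMM CPM, and the exact permutation test gave p = 0.2. On the authors' normalized values these libraries stood at 3774 and 3780, so that the phases did not overlap by a narrow margin, and 4.69% of all sequences tested were lower at 3 d in that way. Without 1 d replicate 1 the log2 fold change was -0.58 (adjusted p = 0.853 in edgeR), and without 1 d replicate 2 it was -1.30 (adjusted p = 0.880). In 5 d vs. 3 d the log2 fold change was -0.14 ± 0.42 (SE, adjusted p = 0.992 in edgeR, exact permutation p = 0.8).

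For miR-263b, the edgeR log2 fold changes were -0.85 ± 0.94 at 3 d against 1 d, -0.61 ± 0.93 at 5 d against 1 d and 0.24 ± 0.93 at 5 d against 3 d (SE), with adjusted p-values of 1.00, 0.858 and 0.992. The standard errors were as large as the differences or larger. The exact permutation tests gave p = 0.6, 0.7 and 0.7. The size depended on single 1 d libraries, and the sign on 1 of them. Without 1 d replicate 1 the values against 1 d turned to 0.13 and 0.43. Without 1 d replicate 2 they stayed negative, at -1.40 and -1.18.

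For isc-miR-96_R-1, the edgeR log2 fold changes were -5.69 ± 2.65 at 3 d against 1 d, -5.06 ± 2.52 at 5 d against 1 d and 0.63 ± 2.41 at 5 d against 3 d (SE), with adjusted p-values of 0.588, 0.495 and 0.992. Without 1 d replicate 2 the comparisons with 1 d gave -0.85 (adjusted p = 0.993) and -0.45 (adjusted p = 0.987), so that the size of the difference rested on that library. The exact permutation tests gave p = 0.4, 0.7 and 1.

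**Figure D4:**
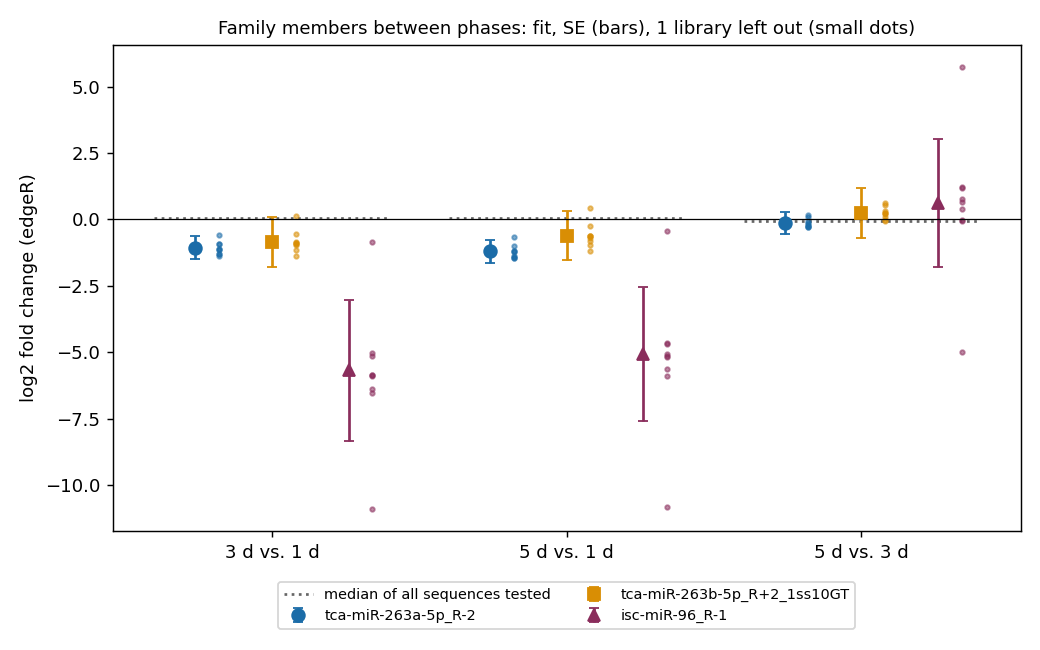
log2 fold change from edgeR (vertical axis) of the 3 members tested in the 3 pairwise comparisons, with SE bars, small dots for the 9 fits that leave out 1 library each, and a dotted line for the median of all sequences tested. miR-263a kept a negative value in every fit against 1 d, between -1.47 and -0.58, whereas the miR-96 value lay near 0 in these comparisons when 1 d replicate 2 was left out.

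The medians of the log2 fold change over all 341 sequences were 0.06, 0.05 and -0.04 in the 3 comparisons, in the order 3 d against 1 d, 5 d against 1 d, 5 d against 3 d. The negative values of miR-263a were thus relative to a median near 0.

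The miRNAs with the pattern over libraries most like that of miR-263a were sought among 338 other sequences, by the root mean square difference of log2(TMM CPM + 1) values centred on their own means. The nearest were dqu-miR-133-5p_2ss13AC18TC at 0.306, tca-miR-9a-3p_R+3_1ss18GA at 0.352 and tca-miR-137-3p_L-1R+1_1ss18AG at 0.408, against a median of 0.988 over all 338. All 3 had a genome position, as did 716 of the 759 sequences of the table. All 3 were highest in 1 d replicate 1, at 206, 720 and 400 TMM CPM. miR-263a was highest there too, so this shared maximum is part of how they were picked. The likeness was not tested without that library. Without 1 d replicate 2 the nearest pair was the same, and the third place went to tca-miR-100-5p_R-2 at 0.416.

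For isc-miR-96_R-1, the nearest were pte-let-7-5p_1ss12GA at 0.901, pte-miR-10-5p_L-1R+2 at 0.960 and tcf-miR-125_1ss22AT at 0.983, against a median of 2.81. All 3 lacked a genome position and all 3 were highest in 1 d replicate 2, at 47788, 530 and 2714 TMM CPM. Without that library, the 3 nearest were other sequences, led by tca-miR-219-5p at 0.738 against a median of 1.67. The likeness of the miR-96 pattern to these sequences therefore rested on 1 library.

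Other miRNAs known from neural and sensory tissue of insects gave a comparison list, made of miR-7, miR-9, miR-79, miR-124, miR-137, miR-210, miR-279, miR-932 and miR-996. It held 26 sequences, of which 19 were tested. In 5 d vs. 1 d, 0 were called higher and 1 was called lower by edgeR, against 1.47% of all sequences called in either direction. This was tca-miR-9a-5p_R+1, with a log2 fold change of -1.49 ± 0.23 (SE, adjusted p = 0.0127 in edgeR). The other miR-9a sequences tested were not called. They stood at -2.47 for bmo-miR-9a-5p_L+2R-2, -1.31 for tca-miR-9a-3p_R+3_1ss18GA and -0.24 for tca-miR-9a-5p_L-1R+2_1ss12CG. The miR-9b and miR-9c sequences tested had positive values, between 0.57 and 1.5, and were not called either. The call thus holds for 1 sequence and not for miR-9 as a group. In fly embryos and discs miR-9a is known to limit the number of sensory organ precursors.

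The edgeR adjusted p of tca-miR-9a-5p_R+1 in 5 d vs. 1 d was 0.0426 without 1 d replicate 2. It was 0.0538, 0.0813 and 0.0651 without 1 d replicate 1, 1 d replicate 3 and 5 d replicate 3. The call was thus lost when any of these libraries was left out. The log2 fold change in the same fits was -1.58, -1.45 and -1.57, so that its size changed little. With all 9 libraries the adjusted p was 0.131 and 0.0673 in limma with a pseudocount of 1 and 10, and 0.0692 in edgeR with upper-quartile factors, and with only the 6 libraries compared it was 0.0770 in edgeR. DESeq2 gave 2.35e-07. At 3 d against 1 d, edgeR called 0 of the 19 and DESeq2 called 1, the same miR-9a-5p sequence at a lower level, where it called 1.76% of all sequences. At 5 d against 3 d both called 0. At an unadjusted p below 0.05, edgeR counted 3, 2 and 1 of the 19 in the order given above, beside 8.5%, 11.4% and 2.35% of all sequences. The list medians were -0.08, -0.24 and -0.05 on the log2 scale, beside 0.06, 0.05 and -0.04 over all sequences, and the values in 5 d vs. 1 d spread between -2.47 and 1.5. The miR-263a values of -1.06 and -1.20 lay inside the spread of this list in both comparisons with 1 d, but toward its lower end. In 3 d vs. 1 d that spread was -1.12 to 1.08. The lowest value in 5 d vs. 1 d was that of bmo-miR-9a-5p_L+2R-2, with an SE of 1.14.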

How the data were processed

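Small RNA of whole-body SW females was sequenced in 9 libraries. The authors cleaned reads with ACGT101-miR, kept 18 to 26 nt, removed other RNA classes, searched miRBase 22.0 precursors and the genome with BLAST, and predicted hairpins with RNAfold. The GEO label text describes an mRNA library protocol instead, whereas the study's methods describe small RNA libraries. The deposited raw values are estimated counts per entry, and some of them end in 0.5. The deposited normalized columns hold a signal, the raw reads multiplied by 1 factor per library. The deposited hairpin free energy is a score in kcal/mol.

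Equal mature sequences were counted once, since all 146 sequences listed more than once had equal counts. Counts were rounded and fitted with edgeR 4.0.16 in R 4.3.3 (TMM, filter by phase, quasi-likelihood F-test with phase as the only term, all 9 libraries, Benjamini-Hochberg over all sequences tested). The standard error is the absolute log2 fold change divided by the square root of F. Exact permutation tests compared mean TMM CPM of single members between phases. A call needed an adjusted p below 0.05. The study's own test used its normalized counts with an unadjusted p. The fit was tested on simulated data. All 9 count columns were mapped to libraries by title. No 2 libraries of a phase agreed within sampling noise.

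Every member was accounted for, and those that passed the filter or had a genome position were described in full. The members and lists were chosen with earlier results of these data known. Alternatives were DESeq2 1.42.0, log2 of the authors' normalized values plus 1 or 10 in limma 3.58.1, other scaling factors, no filter or a filter of 10 CPM, other sets of libraries or sequences, and the replicate number as a block. The labels do not say whether the replicate numbers of the titles pair the libraries, and the main fit did not pair them. Python 3.11.15 was used for tables.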

Additional observations from a re-analysis of the deposited data

How the results depend on the processing

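The count of members called was 0 in every comparison under all alternatives for scaling, test, libraries, sequences and the replicate block, and under the filter of 10 CPM. The exceptions were the following. When every sequence was fitted without a filter, edgeR called 2 members at 3 d against 1 d, 3 at 5 d against 1 d and 3 over all 3 phases. Of all 759 sequences, 2.5%, 3.43% and 3.56% were called there. In that fit miR-263a had a log2 fold change of -1.23 (adjusted p = 0.0390) in 5 d vs. 1 d. The adjusted p of isc-miR-96_R-1 was 4.85e-07 and 2.79e-06 in the comparisons with 1 d. However, 247 of the 300 reads of isc-miR-96_R-1 were in 1 d replicate 2. Its SE in 3 d vs. 1 d was 0.93 without the filter, against 2.65 in the main fit. The cause was not tested. With an unadjusted p below 0.05 in edgeR the counts were 1, 1 and 1 in the same comparisons, beside 8.5%, 11.4% and 8.21% of all sequences tested. Detection in any library in place of every library gave 6, 4 and 4 members.

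Leaving out 1 library at a time gave ranges of the log2 fold change. For miR-263a they were -1.38 to -0.58 at 3 d against 1 d, -1.47 to -0.65 at 5 d against 1 d and -0.29 to 0.18 at 5 d against 3 d, with 0.18 without 3 d replicate 3 and 0.11 without 5 d replicate 2. For miR-263b they were -1.40 to 0.13, -1.18 to 0.43 and -0.04 to 0.63, the change of sign coming without 1 d replicate 1 in both comparisons with 1 d, and in 5 d vs. 3 d without 3 d replicate 1 or 5 d replicate 1 (-0.041 and -0.044). For isc-miR-96_R-1 they were -10.90 to -0.85, -10.85 to -0.45 and -4.99 to 5.75, and in 5 d vs. 3 d the values below 0 were -0.05, -0.04 and -4.99, without 3 d replicate 2, 3 d replicate 3 and 5 d replicate 1. The most extreme of these set a phase listed at 0 throughout against another and depend on the prior count. limma turned the sign of miR-263b, to 0.11 in 3 d vs. 1 d with a pseudocount of 1, and to 0.40 and 0.23 in 5 d vs. 1 d with a pseudocount of 1 and 10. With the replicate block, miR-263b was -0.18 in 5 d vs. 3 d and miR-263a -1.17 in 5 d vs. 1 d (adjusted p = 0.418 in edgeR), and the block changed no call of a member. Over all sequences it left 4 called at 5 d against 1 d, beside 5 without it, and 0 over all 3 phases, beside 4. Same-numbered libraries of different phases correlated between -0.386 and 0.417, with 5 of 9 pairs over 0.1.

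Depth limits the rarer members most. The 4 members outside miR-263a and miR-263b had 12 to 300 reads over 9 libraries, and the table holds no count above 0 under 2.5 reads. The common biological coefficient of variation was 0.692, and 3 libraries per phase can give no exact permutation p under 0.1. With several entries at equal counts, the contribution of each hairpin cannot be told apart.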
